A study of Mus musculus with 143 samples.

Results

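The 36 genes described here encode the core machinery of autophagy and the receptors that bring cargo to it. They are a list of names, with no threshold on a measured value: the 5 genes of the ULK1 initiation complex, 6 genes of the class III phosphatidylinositol 3-kinase (PI3K) complexes and their regulators, 5 genes for phosphoinositide effectors and lipid transfer, 10 genes for the conjugation machinery and the ATG4 proteases, the 5 ATG8 genes, 4 genes for receptors and a scaffold, and the transcription factor Tfeb. All 36 were found among the 41128 genes of the count table, and each passed the filter on low counts in every treatment strategy.

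Macroautophagy encloses cytoplasm in a double membrane that grows into an autophagosome and fuses with the lysosome. The ULK1 kinase complex starts the process, a PI3K complex marks the growing membrane with phosphatidylinositol 3-phosphate, ATG2 and ATG9 proteins supply lipid, and a pair of ubiquitin-like conjugation reactions fix ATG8 proteins to the membrane, where receptors such as p62 bind. Neurons depend on this pathway for the removal of aggregated protein and worn organelles, and huntingtin, the protein that carries the expanded glutamine stretch in Huntington's disease, has been described both as its cargo and as a scaffold for it. mRNA levels do not measure the rate at which autophagosomes form or are consumed.

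The study sequenced polyA-selected RNA of dissected striatum from zQ175 mice, a knock-in model of Huntington's disease with an expanded CAG repeat in the animal's own Htt gene, and from Wild Type (WT) mice. Mice of each genotype were left untreated, received a non-targeting siRNA (NTC), or received HTT-10150, an siRNA against Htt. Under strategy 2[4]6 the mice were dosed when 2 months old and tissue was taken at 6 months, under 6[4]10 dosing was at 6 months and collection at 10 months, and under 2+6[8]10 dosing was at 2 and 6 months and collection at 10 months. The 18 groups held 8 mice each, 4 females and 4 males, except the WT mice given HTT-10150 under 2+6[8]10 (7 mice, 2 females and 5 males), which makes 143 libraries. The zygosity of the zQ175 mice, the strain, and the dose and route of the siRNA are not stated in the labels, and the count table does not separate the expanded from the normal Htt allele.

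Libraries held 12.55 M to 29.19 M counts (M for mega), and the median library 18.85 M. Htt itself was lower in untreated zQ175 than in untreated WT mice under each strategy (log2 fold change -0.30, -0.38 and -0.30). HTT-10150 against NTC lowered Htt under 2+6[8]10, by -0.36 ± 0.058 (SE) in zQ175 (adjusted p 0.000346) and -0.49 ± 0.061 in WT (adjusted p 5.01e-06). Under 2[4]6 the values were -0.01 ± 0.051 in zQ175 (adjusted p 0.993) and -0.26 ± 0.051 in WT (adjusted p 0.0567). Under 6[4]10 they were -0.32 ± 0.084 in zQ175 (adjusted p 0.602) and -0.34 ± 0.084 in WT (adjusted p 0.82). The 6[4]10 values were near in size to the zQ175 value under 2+6[8]10, but did not pass after adjustment over all genes tested. Of 12 marker genes of striatal medium spiny neurons, 11 were lower in untreated zQ175 mice under each strategy. The summed level of these markers ranged from 7121 to 9497 TPM (a length-scaled share of the library's transcripts) in untreated WT and from 4489 to 5517 TPM in untreated zQ175 mice, with no overlap and no marker at 0. In bulk tissue, fewer cells of a type and less RNA per cell cannot be told apart, and the part of this shift in the values below was not tested. Among markers of other cells, 6, 6 and 7 of 10 astrocyte markers and 7, 7 and 4 of 8 endothelial markers were lower in untreated zQ175 mice in the order 2[4]6, 6[4]10 and 2+6[8]10, 1 astrocyte marker was higher each time, 3, 3 and 4 of 10 oligodendrocyte markers and 3, 2 and 1 of 9 microglial markers were lower, and none of the 5 cortical or 5 choroid plexus markers was called. The summed levels of the cortical and choroid plexus lists ranged from 7.88 to 326.6 TPM and from 25.7 to 9911 TPM between libraries. The relation of a gene's level to its transcript length stood apart in 2 zQ175 libraries of 6[4]10 (untreated male 2, 6.59 SD below the mean, and NTC male 1, 3.13 SD below it), so the genotype and age counts of that strategy are also given without them. Under 2+6[8]10 its median was -0.43 SD in HTT-10150 and 1.03 SD in NTC zQ175 mice, and 0.11 and 0.07 SD in WT mice. The Htt values above are not given with this relation in the fit or without the 2 libraries. Its part in them was not tested.

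Within the untreated WT striatum the members spanned a wide range of levels, compared between genes in TPM, which is scaled to transcript length. Gabarapl1, an ATG8 gene, was the most abundant member with a median of 729.8 TPM (659.7 to 789.5, n = 24), and Sqstm1, which encodes the receptor p62, followed with 416 TPM (379.6 to 453.9). The other ATG8 genes lay between 137 TPM for Map1lc3b and 195 TPM for Map1lc3a, so the membrane tag and p62 filled the first 6 ranks. Below them came the receptor gene Nbr1 at 97.9 TPM and the PI3K subunit gene Becn1 at 89.4 TPM. The kinase gene Ulk1 had 24.1 TPM (21.4 to 28.7), less than Atg13 (69.2 TPM), Ulk2 (41.8 TPM), Atg101 (38.9 TPM) and Rb1cc1 (33.4 TPM) of the same complex. At the low end were Tfeb at 11.8 TPM, Atg10 at 10.0 TPM, the receptor gene Optn at 9.89 TPM and the protease gene Atg4a at 6.13 TPM (4.15 to 8.28). The read counts behind these values ran from 50 to 179 per library for Atg4a and from 7188 to 17852 for Gabarapl1. Exons of 12 members overlap those of a gene on the opposite strand, and reads of such pairs cannot be told apart if the counting ignored strand.

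**Figure D1:**
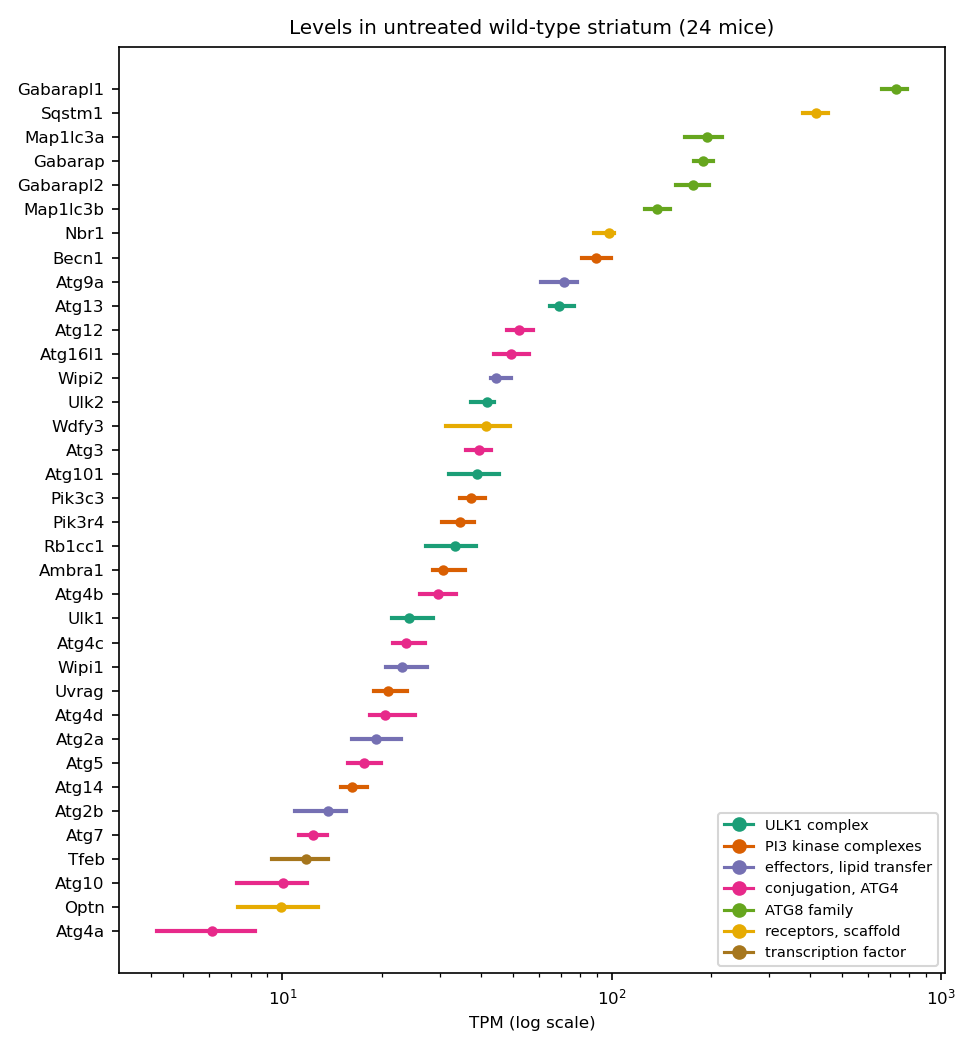
Level of each member in untreated WT striatum, in TPM on a logarithmic axis, with points at the median of 24 mice, lines from the lowest to the highest mouse and colours by role. Gabarapl1 (729.8 TPM) and Sqstm1 (416 TPM) lead the order and Atg4a (6.13 TPM) ends it.

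The first comparison set untreated zQ175 against untreated WT mice within each strategy. It called 11 members under 2[4]6 (4 higher, 7 lower in zQ175), 11 under 6[4]10 (7 higher, 4 lower) and 12 under 2+6[8]10 (5 higher, 7 lower) at a Benjamini-Hochberg adjusted p under 0.05 in edgeR's quasi-likelihood test, which is the call used throughout. Of all genes tested, 32.6%, 36.1% and 35.4% were called in these comparisons, against 30.6%, 30.6% and 33.3% of the members. In this fit the members' share lay near that of all genes. With each library's slopes on transcript length and GC content in the fit, 20, 11 and 11 members were called (55.6%, 30.6% and 30.6%), where 5656 of 15716, 5221 of 15757 and 5893 of 15506 genes were, so under 2[4]6 the members' share depended on this setting. Under 2[4]6 the GC slope differed by genotype, with medians of 0.61 SD in untreated WT and -0.87 SD in untreated zQ175 mice. The medians were 0.07 and -0.39 SD under NTC, and 0.18 and -1.3 SD under HTT-10150. The part of this shift in the calls was not tested. The median log2 fold change over the members was 0.013, 0.034 and 0.003, beside 0.0035, 0.0107 and 0.0031 over all genes tested. Without the 2 libraries that stood apart, 6[4]10 again gave 11 calls, 9 of them shared: Atg14 and Gabarapl2 were lost, and Atg101 and Wdfy3 were gained. Without each replicate number in turn there were 7 to 12, 8 to 12 and 7 to 10 calls. Leaving out mice can change the calls over all genes too. Here and below, a count given without the share of all genes does not show how members compare with other genes.

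With the 3 strategies averaged in a fit of all libraries, 21 members were called, 11 higher and 10 lower in untreated zQ175 mice, where 53.9% of all genes tested were called. The largest of these averages was 0.20 on the log2 scale for Ulk1. Atg12 had the most negative average, -0.19. All effects on members were thus small beside those on the medium spiny neuron markers, whose medians were -0.76, -0.66 and -0.76 by strategy.

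Mice given NTC form another set of animals in which the same genotypes were compared. Mice of the untreated and siRNA sets often share a number in their library names, so the sets are not known to be independent. There 13, 13 and 15 members were called (3 higher and 10 lower, 7 and 6, 8 and 7), where 34.4%, 32.8% and 42.1% of all genes tested were called. Leaving out each replicate number in turn gave 6 to 10 calls under 2[4]6 and 5 to 8 under 6[4]10, the slopes in the fit gave 21 under 2[4]6 (58.3%, with 41.8% of all genes), and no count filter gave 7 under 6[4]10. Without the libraries that stood apart, 6[4]10 again gave 13 calls, with Wipi1 lost and Map1lc3b gained. Of the members called in untreated mice, 9 of 11 under 2[4]6, 7 of 11 under 6[4]10 and 10 of 12 under 2+6[8]10 were called again under NTC, each in the same direction; they made up 9 of 13, 7 of 13 and 10 of 15 of the NTC calls. Across both sets and the 3 strategies, 27 members were called at least once, 9 never were, and none was called in opposite directions. The same overlaps over all genes are not given here, so these counts do not show how members compare with other genes. The mice given HTT-10150 were compared in the same way after the other sets had been seen, and gave 15, 10 and 10 called members (5 higher and 10 lower, 7 and 3, 5 and 5), where 33.5%, 34.7% and 36.2% of all genes tested were called. Under 2[4]6 these counts were 5 to 13 without each replicate number and 8 with only the groups compared, and under 6[4]10 they were 12 without the libraries that stood apart, with Ambra1 and Atg4d gained.

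Ulk1 was called higher, and Atg13, Atg12 and Atg14 lower, in each of the 6 comparisons of untreated and NTC mice. These 4 genes are 11.1% of the members, where 13.9% of 15431 genes were called in 1 direction in all 6. Adding the HTT-10150 mice left Ulk1, Atg13 and Atg12 called in 9 of 9 comparisons, 8.3% of the members against 12.6% of all genes. For Atg14 the untreated 6[4]10 call was lost without the libraries that stood apart (-0.11, adjusted p 0.0536).

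**Figure D2:**
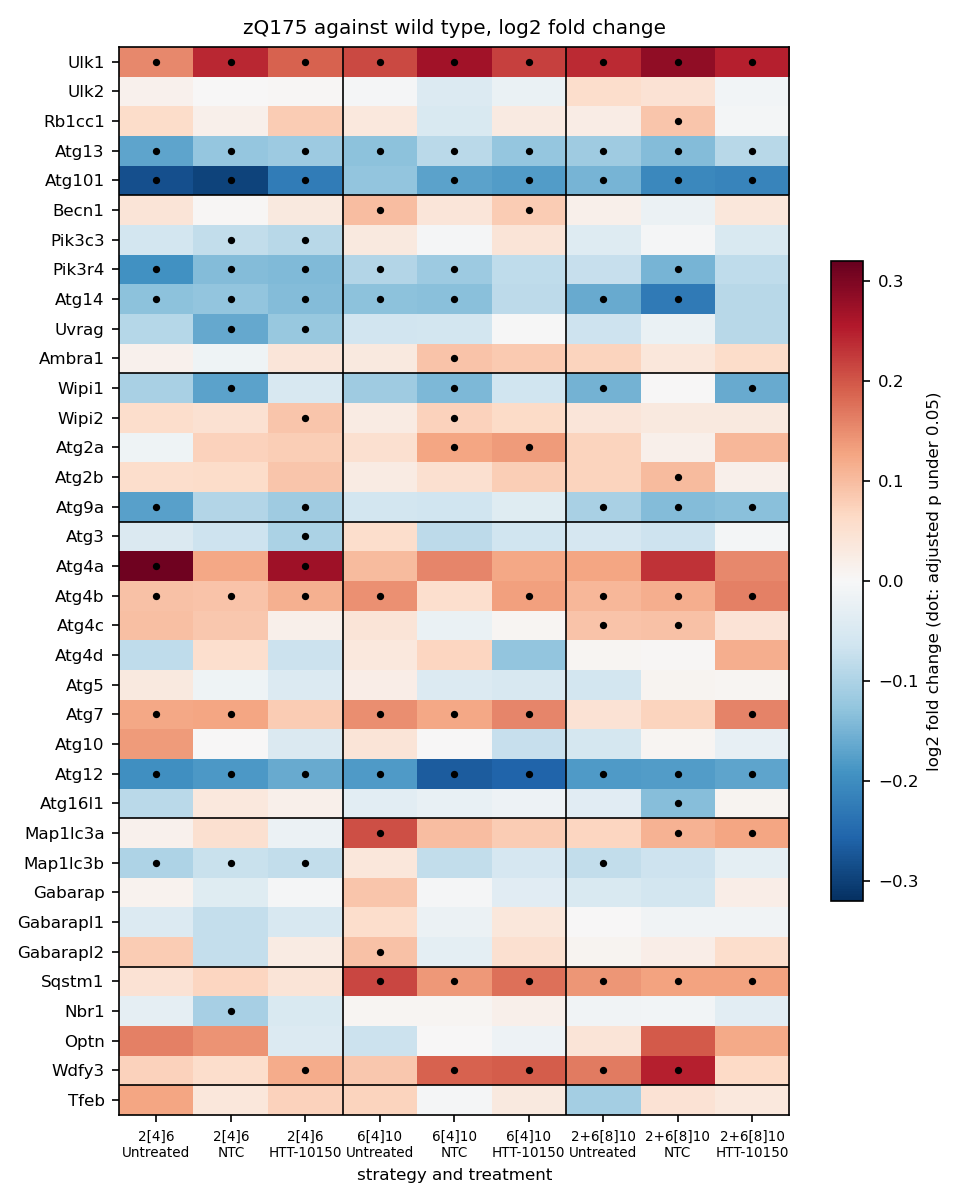
Log2 fold change of zQ175 against WT for each member (rows, grouped by role) in 9 comparisons (columns, by treatment and strategy), with red for higher and blue for lower in zQ175 and a dot where the adjusted p was under 0.05. Ulk1 is red with a dot in all 9 columns, and Atg13 and Atg12 are blue with a dot in all 9.

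The promoters of 3 of these genes, which moved in opposite directions, are shown because the genes are the most regularly changed members of their complexes: Ulk1 rose while Atg13 and Atg14 fell. Each line holds 250 bases before to 50 after the RefSeq gene start on GRCm38.p6, written 5′ to 3′ on the gene's strand, with capitals for CACGTG, the core of the CLEAR element bound by TFEB, and for GGGCGG, the GC box, which reads CCGCCC when it lies on the other strand. Ulk1 lies at chr5:110810032-110810331 on the minus strand, Atg13 at chr2:91710543-91710842 on the minus strand, and Atg14 at chr14:47568385-47568684 on the minus strand.
Ulk1: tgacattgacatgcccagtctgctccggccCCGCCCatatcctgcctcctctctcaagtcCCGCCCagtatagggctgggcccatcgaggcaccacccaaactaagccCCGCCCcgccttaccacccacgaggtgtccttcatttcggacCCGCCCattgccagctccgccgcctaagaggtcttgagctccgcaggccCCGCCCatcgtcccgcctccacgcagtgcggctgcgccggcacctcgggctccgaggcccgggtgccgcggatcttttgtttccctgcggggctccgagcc
Atg13: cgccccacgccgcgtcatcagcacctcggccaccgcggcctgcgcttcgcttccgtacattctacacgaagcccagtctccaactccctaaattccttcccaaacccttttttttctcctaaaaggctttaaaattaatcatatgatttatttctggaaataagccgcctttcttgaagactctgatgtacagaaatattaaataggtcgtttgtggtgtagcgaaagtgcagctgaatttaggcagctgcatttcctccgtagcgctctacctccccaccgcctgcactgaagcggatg
Atg14: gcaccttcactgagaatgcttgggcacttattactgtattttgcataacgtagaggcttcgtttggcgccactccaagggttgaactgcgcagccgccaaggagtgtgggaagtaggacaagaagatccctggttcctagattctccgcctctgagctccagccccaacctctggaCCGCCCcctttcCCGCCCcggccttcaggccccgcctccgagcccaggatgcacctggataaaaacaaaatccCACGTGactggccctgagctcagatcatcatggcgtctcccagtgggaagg
The Ulk1 window held 5 GC boxes and no CACGTG, the Atg13 window held neither, and the Atg14 window held 2 GC boxes and 1 CACGTG. The RefSeq start of Atg14 lies inside the longer GENCODE model of the gene, so its window is not the region before the first base of that model. Searched on both strands, CACGTG was found in 7.15% and GGGCGG in 35.7% of 32851 mouse promoter windows of this length. Of the 34 windows of members, 4 held CACGTG and 22 held GGGCGG. Counted by gene, of 29 members with a window, 4 held CACGTG (Atg3, Atg5, Atg7 and Atg14), and 20 held GGGCGG. In untreated mice Atg14 was called lower under each strategy, Atg7 was called higher under some strategies only, and Atg3 and Atg5 were called neither way. Whether the CACGTG letters bear on these changes was not tested. A match of letters is a description and not a measured binding site.

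Within the ULK1 complex, the kinase gene rose while its partners Atg13 and Atg101 fell. Ulk1 (ENSMUSG00000029512, GRCm38 chr5:110784488-110810097), the kinase that phosphorylates the complex and its targets, is given in CPM, its share of a library's counts after TMM scaling. Under 2[4]6 it ranged from 54.2 to 61.8 CPM with a median of 58.5 in untreated WT and from 59.8 to 71.4 with a median of 64.8 in untreated zQ175 mice. Under 6[4]10 the WT mice spanned 56.7 to 66.8 CPM (median 57.5) and the zQ175 mice 61.9 to 72.2 (median 67.9). Under 2+6[8]10 they spanned 52.4 to 60.6 (median 55.5) and 64.3 to 69.4 (median 66.8). The groups did not overlap under 2+6[8]10, and under 2[4]6 and 6[4]10 the zQ175 mice above the highest WT mouse numbered 7 of 8 and 6 of 8. The log2 fold changes were 0.15 ± 0.039 (SE, adjusted p 0.00161), 0.21 ± 0.042 (adjusted p 8.97e-05) and 0.24 ± 0.038 (adjusted p 1.41e-06).

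The same rise of Ulk1 was measured in both siRNA sets. In NTC mice its log2 fold changes were 0.24, 0.27 and 0.28, and in HTT-10150 mice 0.19, 0.22 and 0.25. In each of the 9 comparisons all 8 zQ175 mice lay above the WT median, and groups did not overlap in 3 of them. Ulk1 shares chromosome 5 with Htt, the modified locus, 75.9 Mb away, as do Wdfy3 at 66.9 Mb and Wipi2 at 107.7 Mb.

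Atg13 (ENSMUSG00000027244, chr2:91674618-91710576), the adaptor that links the kinase to the rest of the complex, fell. Untreated WT mice had 96.9 to 110.3 CPM under 2[4]6 (median 101) against 86.7 to 93.9 in zQ175 (median 90.3), 93.5 to 109.5 (median 103) against 88.9 to 99.1 (median 92.1) under 6[4]10, and 96.2 to 103.9 (median 98.3) against 85.5 to 97.8 (median 92.5) under 2+6[8]10. The groups were apart under 2[4]6 and overlapped in the other strategies, although all 8 zQ175 mice lay below the WT median each time. The fitted changes were -0.17 ± 0.029 (adjusted p 7.12e-06), -0.13 ± 0.033 (adjusted p 0.00162) and -0.12 ± 0.031 (adjusted p 0.00252), and under NTC they were -0.12, -0.09 and -0.14.

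Atg101, which stabilises ATG13, fell by 0.28 ± 0.072 on the log2 scale under 2[4]6 (untreated, adjusted p 0.00171) and by 0.15 ± 0.053 under 2+6[8]10 (adjusted p 0.0238). Under 6[4]10 it had -0.13 ± 0.058 (adjusted p 0.0825), and -0.19 (adjusted p 0.00346) without the libraries that stood apart. Its untreated zQ175 mice had medians of 19.6, 19.2 and 17.99 CPM against 24.6, 21.9 and 19.9 CPM in WT, and the groups overlapped under each strategy. It was called lower in 8 of the 9 comparisons. Ulk2, the related kinase gene, was called in none of the 9 (-0.045 to 0.056), and Rb1cc1, the scaffold FIP200, in 1 of 9 (0.09 under NTC in 2+6[8]10).

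**Figure D3:**
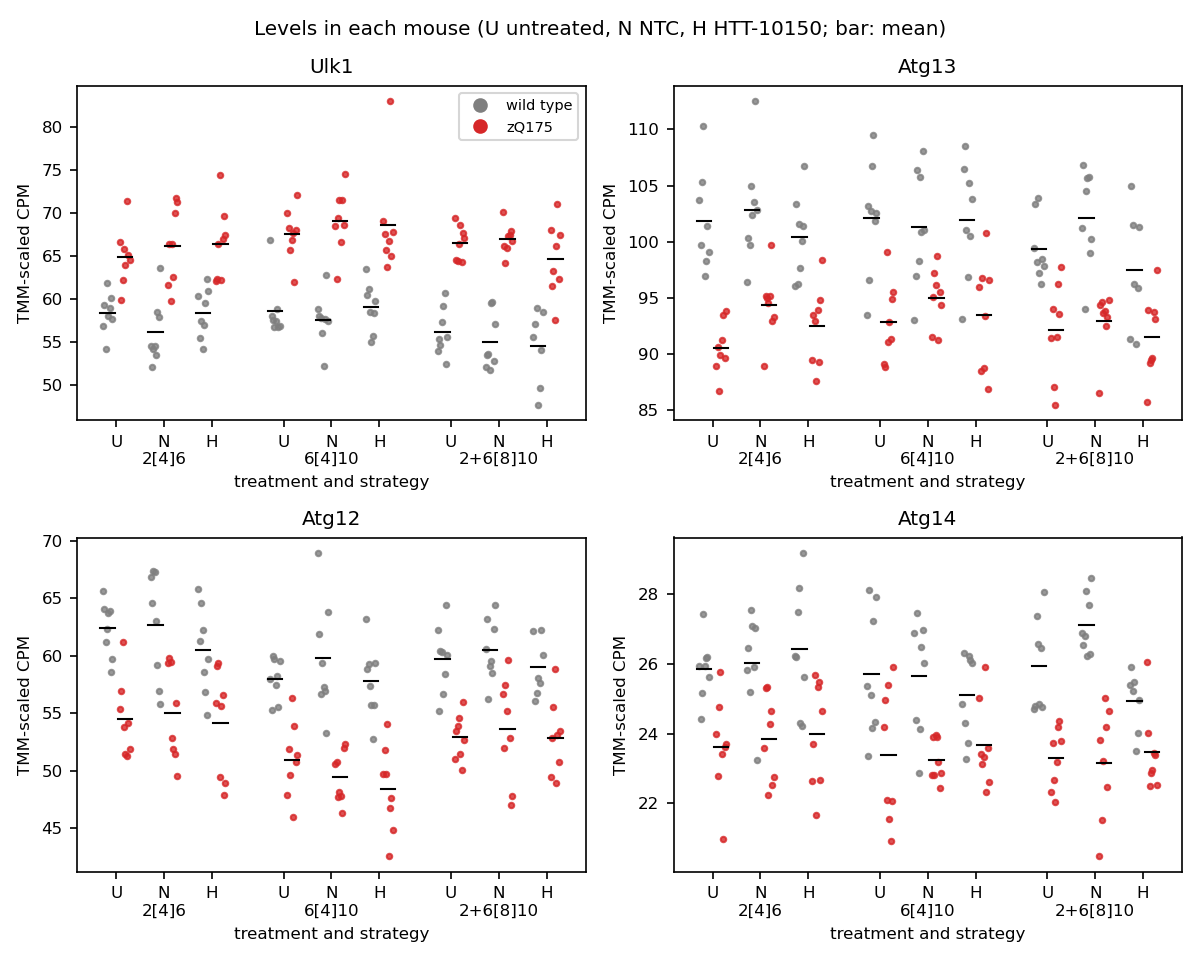
Scaled level in CPM of Ulk1, Atg13, Atg12 and Atg14 in each of the 143 mice, in 18 groups by strategy, treatment and genotype, with a bar at each group's mean. The zQ175 group means lie above the WT means for Ulk1 and below them for the other genes under every treatment and strategy.

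Of the class III PI3K genes, the autophagy-specific subunit gene Atg14 and the anchor gene Pik3r4 fell, and the others were called in at most 2 of 9 comparisons. Atg14 (ENSMUSG00000037526, chr14:47540893-47570649), which directs the kinase to autophagy, had untreated WT medians of 25.9, 25.2 and 25.7 CPM and zQ175 medians of 23.7, 23.2 and 23.5 CPM. Under 2+6[8]10 the WT mice ranged from 24.70 to 28.04 CPM and the zQ175 mice from 22.03 to 24.37, so the groups were apart, as they were under NTC (26.21 to 28.45 against 20.48 to 25.03). Its changes in untreated mice were -0.13 ± 0.043 (adjusted p 0.0136), -0.13 ± 0.045 (adjusted p 0.0193) and -0.16 ± 0.038 (adjusted p 0.000606), and in HTT-10150 mice -0.14 (adjusted p 0.00928), -0.08 (adjusted p 0.153) and -0.09 (adjusted p 0.0706). Exons of Atg14 overlap 239 bases of an antisense gene, and whether the counts used strand is not stated.

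Pik3r4, the regulatory subunit VPS15 that anchors the kinase, was called lower in 6 of the 9 comparisons. Untreated WT mice under 2[4]6 had 68.8 to 78.8 CPM and zQ175 mice 61.9 to 68.1, with no overlap (-0.20 ± 0.043, adjusted p 0.000269). Under 6[4]10 the change was -0.09 ± 0.036 (adjusted p 0.0382). Pik3c3, the catalytic subunit VPS34, was called lower in 2 of 9, both under 2[4]6 in siRNA-treated mice (-0.08 and -0.09). Becn1, the beclin scaffold, was called higher in 2 of 9, both under 6[4]10 (0.10 untreated, 0.08 with HTT-10150), and its exons overlap Cntd1 on the other strand by 3104 bases. Uvrag, which takes the place of ATG14 in the endosomal form of the complex, was negative in 9 of 9 and called lower in 2, both under 2[4]6. Ambra1, a regulator of both complexes, was called once (0.09 under NTC in 6[4]10).

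Among the effectors, the membrane protein gene Atg9a, whose vesicles seed the autophagosome, was negative in all 9 comparisons and called lower in 5, with untreated values of -0.17 ± 0.043 (adjusted p 0.00117) under 2[4]6 and -0.11 ± 0.033 (adjusted p 0.0103) under 2+6[8]10. Its untreated medians under 2[4]6 were 127.8 CPM in WT and 113.4 CPM in zQ175, with ranges that overlapped (120.6 to 134.1 and 104.4 to 122.1). Its exons share 1832 bases with Gm29253 on the same strand, which strand would not separate. Wipi1, a reader of phosphatidylinositol 3-phosphate, was called lower in 4 of 9 (averaged untreated change -0.12 ± 0.029, adjusted p 0.000129). Wipi2, the reader that recruits the conjugation machinery, was positive in 9 of 9 and called higher in 2, with an average of 0.04 ± 0.014 (adjusted p 0.00995). The lipid transfer genes Atg2a and Atg2b were called higher in 2 and 1 of 9, and their untreated averages were 0.04 (adjusted p 0.255) and 0.05 (adjusted p 0.0517).

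In the conjugation machinery the ubiquitin-like protein gene Atg12 fell while the E1-like enzyme and a protease gene rose. Atg12 (ENSMUSG00000032905), which is joined to ATG5, had untreated WT ranges of 58.6 to 65.6, 55.28 to 59.95 and 55.2 to 64.4 CPM and zQ175 ranges of 51.3 to 61.2, 46.01 to 56.34 and 50.1 to 56.0 CPM. Under each strategy 7 of 8 untreated zQ175 mice lay below the lowest WT mouse, and under NTC in 6[4]10 all 8 did. Its changes were -0.20 ± 0.038 (adjusted p 4.95e-05), -0.18 ± 0.042 (adjusted p 0.000533) and -0.18 ± 0.040 (adjusted p 0.000274) in untreated mice, -0.19, -0.27 and -0.18 under NTC, and -0.16, -0.26 and -0.17 under HTT-10150.

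Atg4b, the main protease that primes and recycles ATG8 proteins, was called higher in 8 of 9 comparisons, the exception being NTC in 6[4]10 (0.05). Untreated WT mice had 48.7 to 53.5 CPM under 6[4]10 and zQ175 mice 53.7 to 60.4, with no overlap (0.15 ± 0.029, adjusted p 6.16e-05), and the changes under 2[4]6 and 2+6[8]10 were 0.09 ± 0.032 and 0.11 ± 0.033. Its relative Atg4a had the largest untreated change of any member, 0.31 ± 0.092 under 2[4]6 (adjusted p 0.00669), with 3.68 to 5.15 CPM in WT and 4.80 to 6.52 in zQ175. Under 6[4]10 and 2+6[8]10 Atg4a had 0.10 (adjusted p 0.393) and 0.13 (adjusted p 0.332). Atg4c was called higher in 2 of 9, both under 2+6[8]10, and Atg4d in none.

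Atg7, the E1-like enzyme that activates ATG12 and the ATG8 proteins, was positive in 9 of 9 comparisons and called higher in 6, with untreated values of 0.12 ± 0.042 and 0.15 ± 0.045 under 2[4]6 and 6[4]10. Its untreated medians under 6[4]10 were 19.99 CPM in WT and 22.67 CPM in zQ175. The E2-like genes Atg3 and Atg10 and the conjugation partner Atg5 had untreated averages of -0.01, 0.04 and -0.003, none called. Atg16l1, which completes the ligase with ATG12 and ATG5, was called lower in 1 of 9 (-0.14 under NTC in 2+6[8]10). Its untreated average was also called lower (-0.05 ± 0.019, adjusted p 0.0193).

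The ATG8 genes, the most abundant group, did not move together. Gabarapl1 and Gabarap were called in none of the 9 comparisons. For Gabarapl1 the untreated medians were 622, 583 and 584 CPM in WT and 607, 604 and 584 CPM in zQ175 (averaged change 0.004 ± 0.016, adjusted p 0.84). Map1lc3b, whose protein LC3B is the usual marker of autophagosomes, was called lower in 4 of 9, with -0.10 ± 0.028 in untreated 2[4]6 mice (adjusted p 0.00472). Map1lc3a was called higher in 3 of 9, by 0.21 ± 0.042 in untreated 6[4]10 mice (adjusted p 0.000127), and by 0.16 (adjusted p 0.000396) without the libraries that stood apart. Gabarapl2 was called higher in 1 of 9, in untreated 6[4]10 mice (0.09 ± 0.037, adjusted p 0.0439), a call lost without those libraries (0.06, adjusted p 0.167). Its untreated average was also called higher (0.06 ± 0.024, adjusted p 0.0267), and this average changed sign with the slopes on length and GC content in the fit.

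Sqstm1, the gene of the receptor p62, was higher in zQ175 than in WT mice at 10 months. Under 6[4]10 untreated WT mice had 374.8 to 434.1 CPM (median 405) and zQ175 mice 431.1 to 545.7 (median 463), a change of 0.21 ± 0.036 (adjusted p 4.82e-06). Without the libraries that stood apart this change was 0.18 ± 0.03 (adjusted p 6.21e-06). Under 2+6[8]10 the ranges were 371.4 to 392.1 (median 384) and 384.8 to 450.0 (median 424), a change of 0.14 ± 0.027 (adjusted p 4.39e-05). Under 2[4]6 the medians were 422 and 426 CPM and the change was 0.05 ± 0.035 (adjusted p 0.332). In both 10-month strategies 7 of 8 zQ175 mice lay above the highest WT mouse, and Sqstm1 was called in all 6 comparisons at 10 months and in none of the 3 at 6 months. The difference between the untreated effects of 6[4]10 and 2[4]6 was 0.16 ± 0.046 (adjusted p 0.0554). Between those of 2+6[8]10 and 2[4]6 it was 0.10 ± 0.046 (adjusted p 0.385), so a difference by strategy did not pass this edgeR test. DESeq2 called Sqstm1 for 6[4]10 minus 2[4]6 but not for 2+6[8]10 minus 2[4]6. Exons of Sqstm1 and Mrnip overlap on opposite strands by 580 bases.

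Wdfy3, a large scaffold (ALFY) that links p62-bound aggregates to the machinery, was positive in 9 of 9 comparisons and called higher in 5. In untreated 2+6[8]10 mice it had 176.7 to 218.4 CPM in WT (median 193) and 176.2 to 243.1 in zQ175 (median 223), and 6 of 8 zQ175 mice lay above the highest WT mouse (0.17 ± 0.045, adjusted p 0.00281). Under NTC in the same strategy the groups did not overlap (173.9 to 206.5 against 212.7 to 239.1, 0.25 ± 0.045). In these NTC mice the slope of gene level on transcript length also differed, with a median of 1.03 SD in zQ175 and 0.07 SD in WT, and in untreated mice the medians were 1.13 and 0.50 SD. With the slopes in the fit the Wdfy3 changes were 0.14 ± 0.027 under NTC (adjusted p 6.43e-05) and 0.12 ± 0.025 in untreated mice (adjusted p 0.000111), and Wdfy3 was called higher in 9 of 9 comparisons. In untreated 6[4]10 mice the change was 0.09 ± 0.073 (adjusted p 0.388), and 0.16 ± 0.050 (adjusted p 0.0124) without the libraries that stood apart, which include an untreated zQ175 library at 125 CPM. Nbr1, a receptor related to p62, was called once (-0.11 under NTC in 2[4]6), and the receptor gene Optn in none of 9. Tfeb, the transcription factor for autophagy and lysosomal genes, was called in none of 9, with untreated values of 0.13 ± 0.086, 0.07 ± 0.083 and -0.11 ± 0.068.

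Groups that did not overlap at all were few. Over the 36 members there were 2, 1 and 2 such cases in untreated mice (Atg13 and Pik3r4; Atg4b; Ulk1 and Atg14), 0, 1 and 3 under NTC (Atg12; Wdfy3, Ulk1 and Atg14), and 1, 1 and 3 under HTT-10150 (Pik3c3; Ulk1; Atg4b, Sqstm1 and Atg101). Of all genes tested, 8.79%, 8.83% and 9.22% did not overlap in untreated mice, 8.08%, 8.16% and 12.3% under NTC, and 6.34%, 9.33% and 11% under HTT-10150.

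The next comparison asked whether the siRNA against Htt moved the members. In zQ175 mice HTT-10150 against NTC called 0 members under 2[4]6 and 0 under 6[4]10, where 0% of all genes tested were called in each, and 3 under 2+6[8]10, where 3.16% were called (1.1% higher and 2.06% lower). At an unadjusted p under 0.05 there were 4, 1 and 5 members, and DESeq2 called 0, 0 and 4, where it called 6.59% of the genes it tested under 2+6[8]10. The 3 called members were Wdfy3 (-0.18 ± 0.045, adjusted p 0.0162), Atg4c (-0.12 ± 0.034, adjusted p 0.0382) and Gabarap (0.11 ± 0.032, adjusted p 0.044).

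Wdfy3, higher in zQ175 than WT mice under NTC, had 212.7 to 239.1 CPM in NTC and 183.0 to 212.7 in HTT-10150 zQ175 mice, with medians of 224 and 194, while WT medians were 185 and 190. Atg4c had 34.98 to 37.43 CPM (median 35.4) in NTC and 29.7 to 35.7 (median 33.8) in HTT-10150 zQ175 mice. Gabarap had 111.4 to 118.8 CPM (median 115.4) and 115.7 to 133.4 (median 124.7). The high and low groups thus met or overlapped for each of these genes. The NTC zQ175 mice are also part of the genotype comparison under NTC, so the higher Wdfy3 there and its fall here rest on the same animals. Under 2[4]6 and 6[4]10 the same contrast gave 0.12 (adjusted p 0.918) and 0.01 for Wdfy3, 0.004 and -0.01 for Atg4c, and -0.02 and -0.02 for Gabarap.

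In these groups the slope of gene level on transcript length differed: its median was -0.43 SD (-1.44 to 0.67) in HTT-10150 and 1.03 SD (0.36 to 2.15) in NTC zQ175 mice. With the libraries' slopes on length and GC content in the fit, the changes were -0.01 for Wdfy3 (adjusted p 0.952), -0.12 for Atg4c (adjusted p 0.251) and 0.03 for Gabarap (adjusted p 0.809), and no member was called. Leaving out each replicate number in turn left 0 to 1 calls.

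None of the members called in at least 7 of the 9 genotype comparisons was called between HTT-10150 and NTC in zQ175 mice. Ulk1 had 0.01, -0.01 and -0.05 ± 0.037 (adjusted p 0.541 for the last), Atg13 -0.03, -0.03 and -0.02, and Atg12 -0.03, -0.03 and -0.02. Atg101 had -0.02, -0.01 and 0.02, Atg4b 0.04, 0.03 and 0.015, and Atg14 0.01, 0.03 and 0.02. Sqstm1, called in 6 of the 9, had -0.08, 0.01 and 0.02. Over all 36 members the values ranged from -0.09 to 0.17 under 2[4]6 and from -0.12 to 0.08 under 6[4]10, with a median SE of 0.040 and 0.042. In WT mice 0 members were called under each strategy, with 3, 0 and 4 at an unadjusted p under 0.05 and 0 by DESeq2, where 0.00636%, 0% and 0.0129% of all genes tested were called (under 2+6[8]10, 0.00645% higher and 0.00645% lower).

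**Figure D4:**
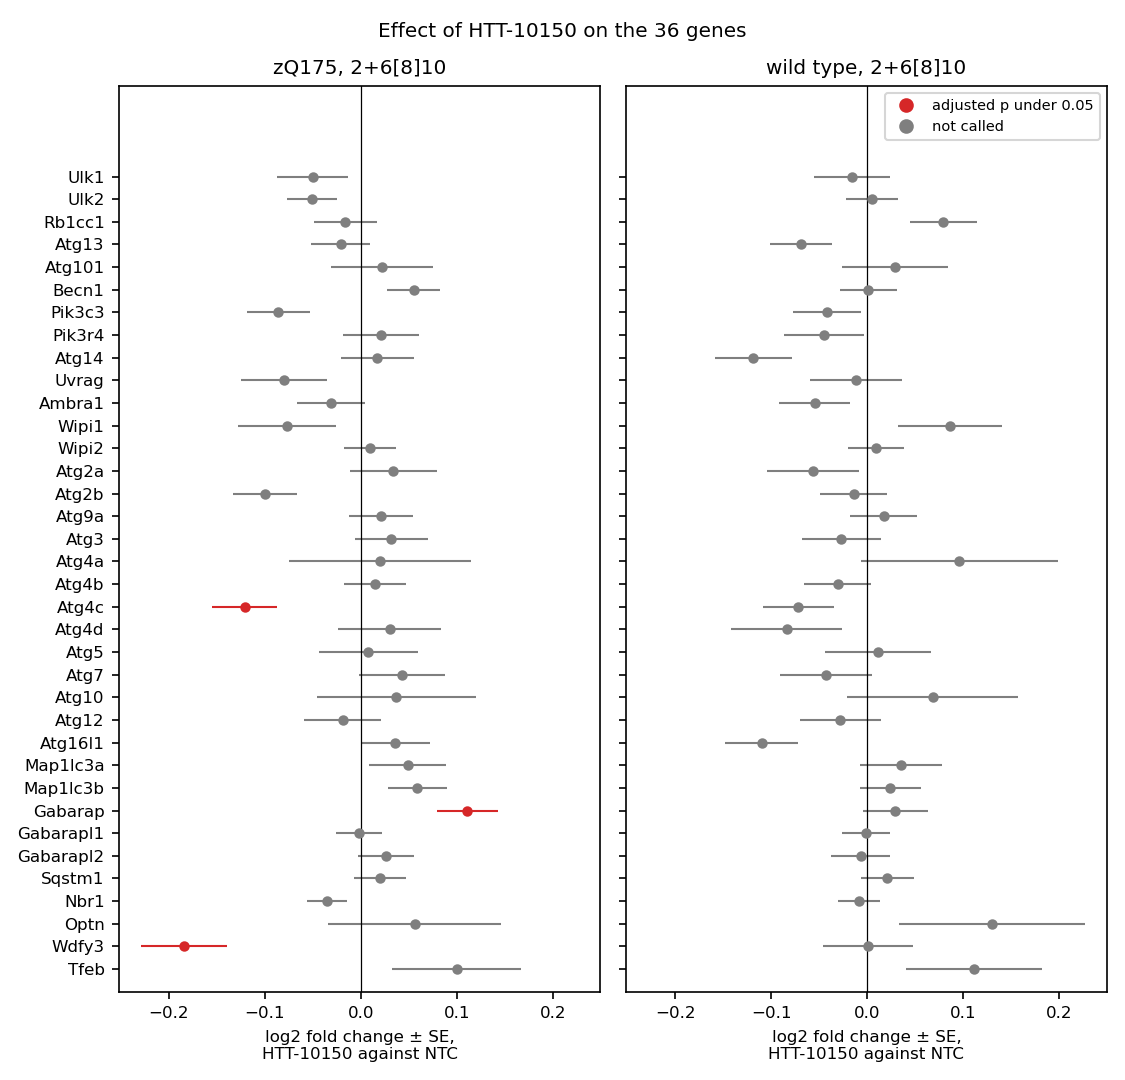
Log2 fold change of HTT-10150 against NTC under 2+6[8]10 for each member in zQ175 and in WT mice, with bars of 1 SE on each side and red for an adjusted p under 0.05. Wdfy3, Atg4c and Gabarap are red in zQ175 mice and no member is red in WT mice.

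Whether the siRNA effect differed between genotypes was tested as an interaction. It called 0 members under each strategy (1, 1 and 4 at an unadjusted p under 0.05, 0 by DESeq2), where 0%, 0% and 0.529% of all genes tested were called. For Wdfy3 under 2+6[8]10 the difference was -0.19 ± 0.065 (adjusted p 0.186). NTC against untreated mice likewise called 0 members in zQ175 (1, 4 and 0 at an unadjusted p under 0.05) and 0 in WT mice (1, 0 and 3), and 0 by DESeq2 in each. The background was 0% under every strategy in zQ175 and 0%, 0% and 0.181% in WT mice. Every member change in these NTC comparisons lay between -0.15 and 0.15.

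Differences of the untreated genotype effect between strategies called 0 members in each pair (6, 2 and 3 at an unadjusted p under 0.05), where 0.835%, 0.0675% and 0.0123% of all genes tested were called for 6[4]10 minus 2[4]6, 2+6[8]10 minus 2[4]6 and 2+6[8]10 minus 6[4]10. DESeq2 called 1 member, Sqstm1, in the first pair and 0 in the others. The genotype effect was also compared between males and females, and 0 members were called (2, 5 and 3 at an unadjusted p under 0.05, 0 by DESeq2), where 0% of all genes tested were called under each strategy. With 4 mice per sex and group the median SE of that difference was 0.08, 0.082 and 0.074 on the log2 scale.

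Untreated mice of 10 and 6 months were compared within each genotype; age and cohort cannot be told apart. In WT mice 9 members were called between 6[4]10 and 2[4]6 (1 higher and 8 lower at 10 months), where 16.4% of all genes tested were called, and 4 between 2+6[8]10 and 2[4]6 (1 higher, 3 lower), where 7.57% were. In zQ175 mice the counts were 10 (4 higher, 6 lower), where 19.4% were called, and 1, where 1.52% were. These comparisons share the untreated 2[4]6 mice of a genotype as their control.

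Rb1cc1 (FIP200) was lower at 10 months by 0.23 ± 0.065 in WT and by 0.26 ± 0.065 in zQ175 mice of 6[4]10, and Ulk2, Gabarapl2 and Atg12 were called lower in both genotypes of that strategy (-0.12 to -0.14 in WT, -0.13 to -0.15 in zQ175). Atg2a was higher in both (0.15 ± 0.051 and 0.21 ± 0.051). Pik3r4, Pik3c3, Nbr1 and Gabarapl1 were called lower in WT mice only, Sqstm1 (0.15 ± 0.035), Atg16l1 (0.14 ± 0.036) and Atg4b (0.09 ± 0.032) higher and Atg10 and Atg4c lower in zQ175 mice only; the difference between genotypes is the between-strategy test above, which called none of them. Under 2+6[8]10 Gabarapl1 was again called lower in WT mice (-0.10 ± 0.029), as were Map1lc3a and Atg9a, and Atg2b was called higher in both genotypes (0.13 ± 0.044 and 0.16 ± 0.043). Without the libraries that stood apart, Atg10 and Atg4c were lost in zQ175 mice of 6[4]10. With the slopes on length and GC content in the fit 2 members remained called there, so most of the changes named for these mice lost their call. The median GC slope was -0.87 SD under 2[4]6 and 0.6 SD under 6[4]10 in untreated zQ175 mice, and 0.61 and 0.91 SD in untreated WT mice. The names of those 2 members and the WT count with the slopes are not given here.

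Other genes of the pathway were read from 4 further lists in untreated zQ175 against WT mice. Of 38 lysosomal genes, 10 were higher and 2 lower under 2[4]6, 20 and 1 under 6[4]10, and 15 and 1 under 2+6[8]10, with medians of 0.02, 0.10 and 0.08. Most of the called lysosomal genes were higher under each strategy. Of all genes tested, 15.3%, 19.2% and 17.1% were called higher and 17.2%, 17% and 18.3% lower. The proton pump genes Atp6v1a (0.22, 0.32 and 0.28), Atp6ap1 (0.22, 0.29 and 0.24) and Atp6v0a1 (0.15, 0.32 and 0.25) and the sulfatase gene Galns (0.37, 0.29 and 0.44) were called under all 3 strategies. Under NTC the lysosomal counts were 11 and 3, 15 and 2, and 16 and 1, for which the shares of all genes by direction are not given here. HTT-10150 against NTC called 0 lysosomal genes in zQ175 mice under each strategy. As given above, few or none of all genes tested were called in that contrast, so this count does not set the list apart. Without each replicate number in turn, 6 to 9, 13 to 16 and 13 to 15 lysosomal genes were higher. The lysosomal list was chosen with earlier results known, so its counts describe these samples.

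Genes of mTORC1, AMPK and nutrient sensing, which act on the ULK1 complex, moved in both directions: of 36, 3 were higher and 7 lower, 8 and 8, and 6 and 9, and the number higher fell to 3 under 6[4]10 without replicate 4 and to 1 under 2[4]6 without replicate 3. Those called under all 3 strategies included Rragd, a Rag GTPase (-0.40, -0.41 and -0.39), Deptor, an inhibitor of mTOR (-0.41, -0.35 and -0.39), Sesn3, a sestrin (-0.26, -0.42 and -0.25), and Prkab2, an AMPK subunit (0.29, 0.20 and 0.30). Of 33 other autophagy genes, 2 were higher and 8 lower, 4 and 4, and 7 and 3, the last becoming 3 and 3 without replicate 1. Foxo1, a transcription factor for autophagy genes, was called lower each time (-0.57, -0.51 and -0.57), and Vmp1, needed for autophagosome growth from the endoplasmic reticulum, had -0.24, -0.13 (adjusted p 0.0657) and -0.22. Atg16l2, a relative of Atg16l1, had 0.39, 0.13 (adjusted p 0.184) and 0.30, and the kinase gene Dapk1 had -0.20, -0.15 and -0.09 (adjusted p 0.0624). Of 19 other receptors, 3 were higher and 3 lower, 2 and 3, and 1 and 3, with Calcoco1 (-0.28, -0.24 and -0.21), Fkbp8 (-0.23, -0.12 and -0.21) and Bnip3 (-0.18, -0.13 and -0.24) lower and Rtn3 (0.08, 0.13 and 0.10) higher each time.

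**Figure D5:**
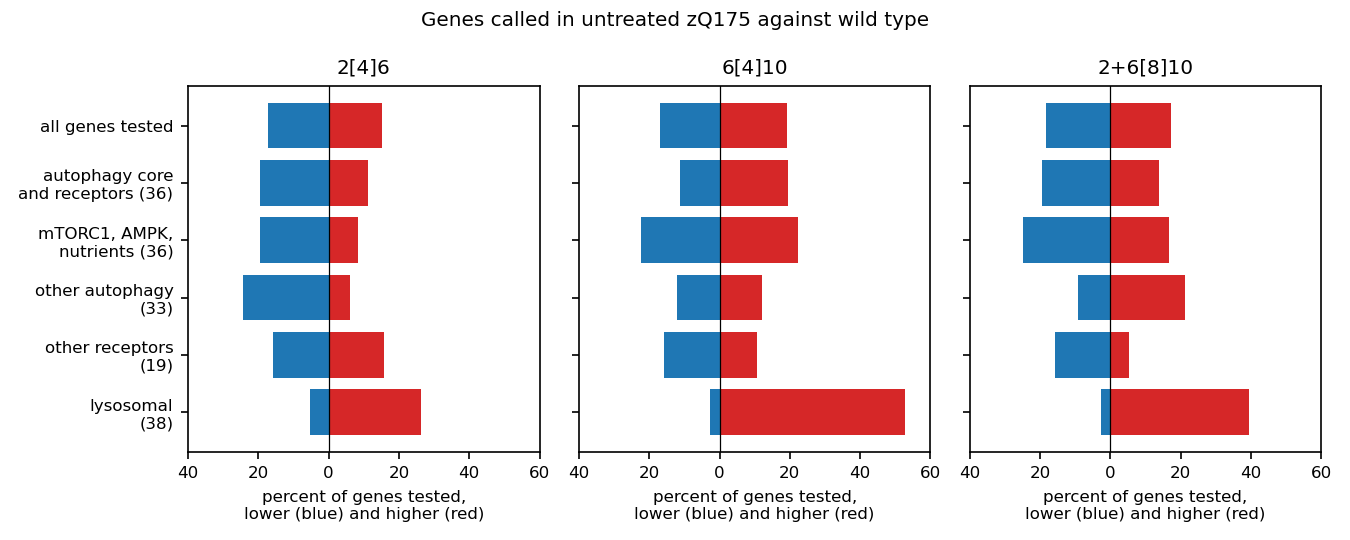
Percent of genes called higher (right) and lower (left) in untreated zQ175 against WT mice, for all genes tested, the 36 members and 4 lists of other pathway genes, by strategy. The members lie near the bars of all genes, and the lysosomal list has 10, 20 and 15 of 38 genes called higher.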

How the data were processed

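PolyA RNA-seq of 143 striatal samples was analysed from the deposited tables. The deposited expected counts were made by the authors with RSEM on GRCm38, per the submitters' processing notes; the version, the aligner, the annotation and the strand setting were not given in the sources used here. They were rounded to whole numbers; 7 entries that name no gene (5.91e-06% of counts) were left out. The other deposited table is named for FPKM, but its columns all have the fixed total of TPM, so its values were read as TPM and used only for levels between genes and for marker sums. Each strategy was fitted with edgeR 4.0.16 (R 4.3.3) over its 6 groups with sex as covariate, after filterByExpr and TMM scaling, with the quasi-likelihood F test and Benjamini-Hochberg adjustment over all genes tested. A gene was called at an adjusted p under 0.05. Contrasts across strategies came from 1 fit of all libraries with sex within strategy. Standard errors were derived from each log2 fold change and its F statistic. CPM were TMM-scaled over all libraries. Alternatives included DESeq2 1.42.0, no filter, the groups compared alone, replicate and library-name blocks, each replicate number left out, and each library's slopes of gene level on transcript length and GC content as covariates; leaving out the 2 libraries with a slope over 3 SD from the mean, and the comparison of genotypes under HTT-10150, were added after seeing the data. The scripts were tested on simulated data. The labels describe separate mice. The genes named are all 36 members, Htt, and from each list of other pathway genes up to 4 with the largest mean change among those called in the same direction under all 3 strategies (2 of 3 where fewer than 2 such genes exist). Members and lists were chosen with earlier results of these data known. Gene positions are from GENCODE M21 and promoters from RefSeq; 7 members had no promoter entry.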

Additional observations from a re-analysis of the deposited data

Results flagged for a closer look

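In 11 of 180 group values of the 10 members checked, a single mouse lay far from the other mice of its group, where chance alone would mark about 1 in 20 groups. Ulk1 was 66.82 CPM in untreated WT female 1 of 6[4]10 (next highest 58.86) and 83.04 CPM in HTT-10150 zQ175 male 2 of the same strategy (next 69.09). Atg13 was 86.59 CPM in NTC zQ175 female 1 of 2+6[8]10 (next lowest 92.5), and Atg14 was 26.05 CPM in HTT-10150 zQ175 female 1 of that strategy (next highest 24.03). Atg4c was 30.2 CPM in untreated WT male 4 of 2[4]6 and 36.33 CPM in HTT-10150 zQ175 male 4 of 6[4]10 (next highest 32.41). Wdfy3 was 176.2 CPM in untreated zQ175 male 3 of 2+6[8]10 (next lowest 215.8) and 125.2 CPM in untreated zQ175 male 2 of 6[4]10 (next lowest 191.6). Gabarap was 104.2 CPM in HTT-10150 WT male 3 of 2[4]6 (next lowest 114.1), 119.2 CPM in HTT-10150 zQ175 female 1 of 6[4]10 (next highest 113.5) and 146.4 CPM in untreated zQ175 male 2 of 6[4]10 (next highest 124.6). The last mouse is the library with the most extreme slope on transcript length, and it was the lowest for Wdfy3 and the highest for Gabarap in its group.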

How the results depend on the processing

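The genotype calls of Ulk1 and Atg12 in untreated mice held under every alternative run, and Atg13 lost 1 call (6[4]10 without replicate 2, adjusted p 0.0521). Of 482 alternative fits of called genotype changes of single members, 421 kept direction and call, 59 lost the call and 2 reversed; of 39 fits of the called HTT-10150 changes, 18 kept and 21 lost it. The causes were not tested.

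In zQ175 mice of 2+6[8]10, HTT-10150 against NTC gave 3 called members, 0 with all libraries in 1 fit, 0 with slopes on length and GC as covariates, 1 without a count filter, 1 with only the groups compared, and 0 to 1 without each replicate number. With slopes as covariates, untreated calls under 2[4]6 went from 11 to 20 (30.6% to 55.6% of the members, and 32.6% of all genes to 5656 of 15716), NTC calls under 2[4]6 from 13 to 21 (36.1% to 58.3%, and 34.4% to 41.8%), the zQ175 age comparison of 6[4]10 from 10 to 2 and of 2+6[8]10 from 1 to 0. The 6[4]10 minus 2[4]6 difference went from 0 to 1 with slopes (Wdfy3) and to 1 by DESeq2 (Sqstm1). Without the libraries of extreme slope the zQ175 age comparison of 2+6[8]10 gave 2. HTT-10150 genotype calls under 2[4]6 went from 15 to 8 with only the groups compared, and NTC calls under 6[4]10 from 13 to 7 without a count filter. With slopes as covariates 4 values changed sign: Rb1cc1 (-0.11) and Gabarap (-0.056) in untreated 2[4]6 mice, and Gabarapl2 in untreated 6[4]10 mice (-0.002) and averaged (-0.007). Leaving out each replicate number gave, in the order 2[4]6, 6[4]10 and 2+6[8]10, 7 to 12, 8 to 12 and 7 to 10 calls in untreated mice, 6 to 10, 5 to 8 and 11 to 14 under NTC, and 5 to 13, 8 to 10 and 6 to 10 under HTT-10150. Where a count stands without the share of all genes, it does not show how members compare with other genes.

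Same-numbered mice had median correlations of 0.152, 0.103 and 0.085, beside -0.027, -0.026 and -0.015 for other pairs and 0.155, 0.159 and 0.102 for mice sharing a library number, and same-numbered pairs were over 0.1 in 88 of 120, 61 of 120 and 48 of 110 cases. Not every pair was over 0.1, and the numbers were not taken to pair the mice. This rule cannot decide whether they do, because single pairs vary widely. Same-numbered mice are also of the same sex, and sex was not removed before the correlations. With the replicate number as a block the counts were 14, 11 and 11 in untreated mice, 15, 13 and 16 under NTC, 15, 12 and 9 under HTT-10150, and 3 for HTT-10150 against NTC in zQ175 mice of 2+6[8]10; with it the other siRNA comparisons within a strategy and the interaction called 0. The library number as a block, run on the siRNA comparisons, gave 3 calls in the same comparison and 0 elsewhere. Nearly all library numbers were held by mice of the same genotype, and the genotype comparisons were not run with this block. Their tests treat mice sharing a library number as independent. Library numbers are also shared between the untreated, NTC and HTT-10150 sets, so repeated calls across sets are not known to be independent. The part of this sharing in the genotype calls was not tested. No block was run on the averaged, age, sex or between-strategy comparisons.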
